A study of Saccharomyces cerevisiae with 6 samples.

Results

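The 35 genes described here encode proteins of meiosis and spore formation in Saccharomyces cerevisiae, chosen by name from the SPO, SPS, SPR, DIT, IME and REC gene families and from the regulators and recombination proteins that work with them. All 35 were found by gene symbol or systematic name among the 6256 genes of the array. They were sorted into 6 regulators, 13 genes of recombination and chromosome synapsis, and 16 genes of prospore membrane, spore wall and other steps of spore formation.

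The study asked how loss of the myosin II heavy chain gene MYO1 alters mRNA levels in growing yeast, using 6 oligonucleotide arrays that each carried RNA of a myo1Δ strain in one dye and of a wild type strain in the other. Arrays 1 to 3 set YJR13 (myo1Δ::HIS5+, MATa) against YJR12 (wild type, MATα), which are segregants of a cross of YJR6 with BY4741, and arrays 4 to 6 set YJR6 (myo1Δ::HIS5+, MATα) against its parent MGD353-46D (wild type, MATα). Each strain was haploid, carried trp1, ura3, leu2-3 and his3delta1 mutations with ADE+ and cyhR (YJR12 is also listed as ARG+), and stood for its genotype as a single line, with RNA from separate cultures on its 3 arrays. Cultures grew overnight at 26°C in CSM or in medium without histidine. The paper gives the optical density at harvest and names no growth phase. Since HIS5+ marks only the mutants, medium and genotype cannot be told apart.

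Diploid a/α cells enter meiosis when nitrogen and a fermentable carbon source run out. The transcription factor Ime1 then turns on early genes for recombination and pairing of homologous chromosomes, Ndt80 turns on middle genes for the meiotic divisions and the prospore membrane, and late genes build the spore wall with its dityrosine and chitosan layers. In haploid cells growing on glucose the a1-α2 repressor is missing, Rme1 keeps IME1 low, and most genes of the program are held silent by Ume6 with Sin3 and Rpd3 or by Sum1.

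The 6 arrays differed in quality. The slides were inferred from the image names alone. By these names arrays 1 and 2 shared the first, 3 and 4 the second and 5 and 6 the third of 3 slides. The second slide would then have held an array of each strain pair. The SD of the log2 ratios over genes ran from 0.67 on array 3 to 1.16 on array 4, and array 3 correlated least with the others (r from 0.14 to 0.48 across genes, which are not replicates). According to the labels the mutant was in Cy3 on arrays 2 and 5 and in Cy5 elsewhere, but arrays 1 and 2 have 1 image name between them, whose dye order is that of array 2. Taking the labels as they stand, MYO1 was lower in the mutant channel on every array, at -2.11 log2 units on array 1 and -2.17 (SE 0.29) over the 6 arrays.

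Most of these genes were near the lower limit of what the arrays could measure. A gene was called above background in a channel when its spot signal divided by the local background exceeded the 95th percentile of the same ratio among the 89 negative control spots, which lay between 1.02 and 1.12 in the 12 channels. Among the 35 genes 13 were above that limit in all 12 channels, against 86% of the genes with a value on every array. The 13 were IME1, NDT80 and SPS1 among the regulators, REC102, MEI4, RED1, DMC1 and ZIP1 among the recombination genes, and SPO1, SPO73, SPR6, SPS18 and SPS100 among the spore genes. By a stricter limit of 2.6 background SDs above the local background, 0 of the 35 genes passed in all 12 channels, against 32.3% of genes. In mutant channels 24 of the 35 were above the limit on all 6 arrays, and in wild type channels 14 were. The number above the limit in 1 channel ranged from 16 in the YJR12 channel of array 3 to 35 in the YJR6 channels of arrays 4 and 5. The share of all genes above it was also lowest in the YJR12 channel of array 3, at 87.6%. It was highest in the YJR6 channel of array 4, at 99.2%. The channels thus differed in how many genes of any kind they detected. The limit also differed by dye, at 1.02 to 1.04 in Cy5 channels and 1.09 to 1.12 in Cy3 channels. By the labels the mutant was in Cy5 on arrays 1, 3, 4 and 6. On array 2, with the mutant in Cy3, 24 members passed in YJR13 and 29 in YJR12. On array 5, also with the mutant in Cy3, 35 passed in YJR6 and 27 in MGD353-46D. More passed in the mutant channel on every array but array 2. Whether the 24 against 14 goes beyond these differences was not tested, and it has no share over all genes beside it.

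The signals themselves were small. The median of the 35 genes lay between 1.04 and 1.33 times local background in the 12 channels, where the median over all genes lay between 1.23 and 2.6. By mean intensity 29 of the 35 fell in the lowest 25% of the array and 33 in the lower 50%. A signal of 2 times background was reached in at least 1 channel by 4 of them, SPS100, SPR6, RED1 and SPO73, and 13 never reached 1.3 times background. SPO75, a gene needed for spore formation, was above the negative controls on 0 of 3 arrays in both YJR13 and YJR12.

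**Figure D1:**
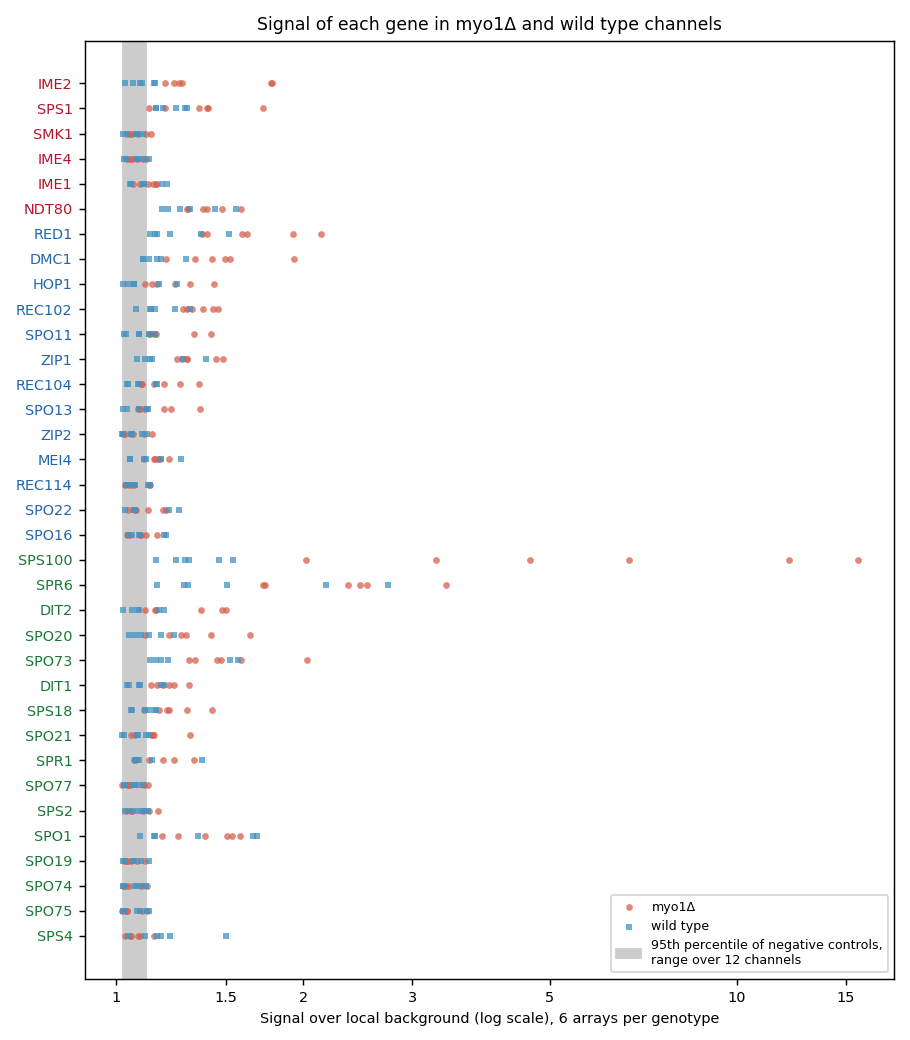
Signal over local background (x axis, log scale) of the 35 genes in the 6 myo1Δ channels (circles) and the 6 wild type channels (squares), with gene names colored by role (red, regulators; blue, recombination and synapsis; green, spore formation) and a gray band for the range of the 95th percentile of negative control spots over the 12 channels. Most genes lie within or just right of the band, and the mutant channels of SPS100, at 2.02 to 15.7 times background, lie to the right of its wild type channels.

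Over the 6 arrays 5 of the 35 genes were up regulated in myo1Δ strains and 0 were down regulated, at an adjusted p of at most 0.05 (limma, Benjamini-Hochberg over the 6255 genes tested). They were the spore wall gene SPS100, the sporulation gene SPR6, the meiotic kinase gene IME2, and the chromosome axis genes RED1 and HOP1. This is 14.3% of the members, close to the 14.2% of all genes that were called higher, beside 12.9% called lower and 27.1% in either direction. At an unadjusted p of 0.05, 11 members were higher and 1 was lower, beside 21.6% and 19.1% of all genes. Of the 29 members in the lowest 25% by mean intensity 2 were called, both higher, and of the 1564 genes in that class 3.58% were called higher and 3.13% lower. SPS100 alone passed an adjusted p of 0.01, which 7.43% of all genes did. At an unadjusted p of 0.01 there were 3 members, all higher (SPS100, SPR6 and IME2), beside 24.3% of all genes in either direction.

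The median log2 ratio of the 35 genes was 0.12 over the 6 arrays, beside 0.00 for all genes and -0.01 for all genes in the lowest 25% by intensity. By array it ran from 0.02 on array 3 to 0.30 on array 4, with an SD of 0.11 over arrays, while the median of all genes stayed between -0.00186 and 0.0267. The mean ratio was above 0 for 29 of the 35, beside 50.1% of all genes and 47.1% of those in the lowest 25% by intensity. On all 6 arrays 12 members were higher in the mutant and 1, SPS4, was lower, where 14.2% of all genes were higher on all 6 arrays. In signal over background, IME2 and SPS100 were the 2 members whose lowest mutant channel exceeded their highest wild type channel, which 2.77% of all genes did. Between -0.1 and 0.1 log2 units lay 16 members, each with an SE of 0.08 to 0.15, of which 4 were regulators, 5 recombination genes and 7 spore genes.

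**Figure D2:**
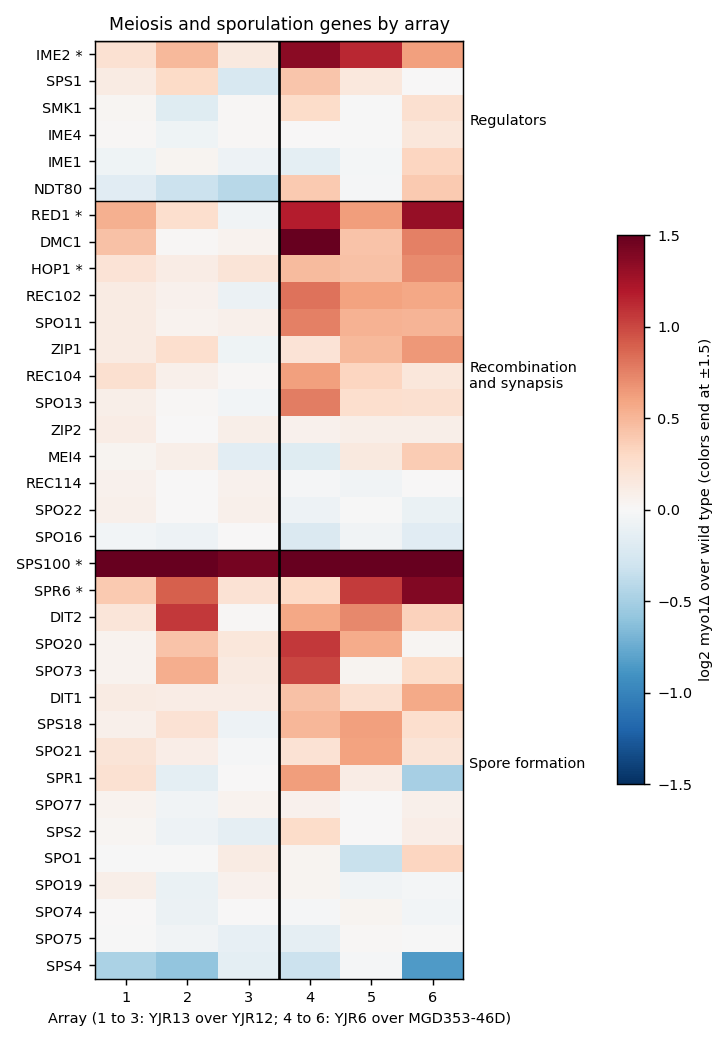
Log2 ratio of myo1Δ over wild type for the 35 genes (rows, grouped by role and ordered by mean) on the 6 arrays (columns), with colors ending at 1.5 in each direction and a star for an adjusted p of at most 0.05 over the 6 arrays. SPS100 is high on every array, and IME2, RED1, DMC1, REC102 and SPO11 are higher on arrays 4 to 6 than on most of arrays 1 to 3.

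Among the regulators, IME1 encodes the transcription factor that opens the meiotic program. Its log2 ratios were -0.07, 0.04 and -0.08 in the YJR13 pair and -0.14, -0.03 and 0.32 in the YJR6 pair. The signs were mixed in both pairs, and the mean was 0.01 (SE 0.09, adjusted p = 0.96, limma). Its signal was above the negative controls in every channel, at 1.06 to 1.16 times background in mutants and 1.05 to 1.21 in wild types, so the mutant and wild type ranges overlapped.

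IME4 encodes the methyltransferase that places N6-methyladenosine on mRNA during meiosis. Its log2 ratios lay between -0.07 and 0.02 on arrays 1 to 5 and were 0.17 on array 6, with a mean of 0.02 (SE 0.08, adjusted p = 0.86). It was above the negative controls in 7 of 12 channels, so its level was measured in only some of the cultures. NDT80, the activator of middle sporulation genes, gave -0.16, -0.32 and -0.42 in the YJR13 pair and 0.40, -0.01 and 0.40 in the YJR6 pair. All 3 arrays of the YJR6 pair were above all 3 of the YJR13 pair, the mean was -0.02 (SE 0.14, adjusted p = 0.93), and the difference of -0.56 between the pairs was not called (adjusted p = 0.59). SMK1 and SPS1, kinases that act in spore wall assembly, had means of 0.06 (SE 0.10) and 0.12 (SE 0.11), and neither was called.

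IME2, the kinase that acts downstream of Ime1 and promotes meiotic DNA replication and NDT80 activity, was the 1 regulator that rose. Its log2 ratios were 0.23, 0.49 and 0.15 in the YJR13 pair and 1.35, 1.13 and 0.62 in the YJR6 pair. It was higher in the mutant on all 6 arrays, and the 3 YJR6 values exceeded the 3 YJR13 values. The signal over background in mutants was 1.24, 1.28 and 1.26 in YJR13 and 1.78, 1.77 and 1.20 in YJR6. In wild types it was 1.10, 1.03 and 1.09 in YJR12 and 1.15, 1.06 and 1.15 in MGD353-46D. No wild type channel reached a mutant channel, although 10 of the 12 values were below 1.3. The mean log2 ratio of 0.66 (SE 0.18) was a fold change of 1.58 (adjusted p = 0.036, limma). The call was lost without array 1, 2, 4, 5 or 6, with adjusted p from 0.051 to 0.084, and held without array 3 (adjusted p = 0.028). It was also lost without background correction (adjusted p = 0.082), with median normalization (adjusted p = 0.12), with every spot on its own (adjusted p = 0.077), with a dye effect (adjusted p = 0.051) and with slide as a block (adjusted p = 0.072), over log2 ratios from 0.27 without background correction to 1.90 with no offset.

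The recombination genes include Spo11, which cuts DNA to start recombination, and its partners Rec102, Rec104, Rec114 and Mei4. Of these 5, SPO11 had log2 ratios of 0.13, 0.06 and 0.08 in the YJR13 pair and 0.75, 0.53 and 0.51 in the YJR6 pair, with a mean of 0.34 (SE 0.13, adjusted p = 0.085). REC102 gave 0.13, 0.07 and -0.09 in the YJR13 pair and 0.82, 0.60 and 0.58 in the YJR6 pair, with a mean of 0.35 (SE 0.15, adjusted p = 0.12). For both genes the YJR6 arrays lay entirely above the YJR13 arrays. REC104 had a mean of 0.24 (SE 0.11), while REC114 and MEI4 had means of 0.01 (SE 0.08) and 0.05 (SE 0.10).

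Red1 and Hop1 form the protein axis from which chromosome loops extend in meiotic prophase. RED1 gave log2 ratios of 0.54, 0.25 and -0.06 in the YJR13 pair and 1.18, 0.62 and 1.31 in the YJR6 pair. It was higher in the mutant on 5 of 6 arrays, all but array 3, and highest on arrays 4 and 6. Its signal reached 2.14 times background in the YJR6 channel of array 4, beside 1.52 in the wild type channel of that array. The mean of 0.64 (SE 0.19) was a fold change of 1.56 (adjusted p = 0.049), and the call held without array 3 alone, with adjusted p from 0.077 to 0.12 without any other array. It was also lost with the deposited log2 ratios (adjusted p = 0.052), without background correction (0.31, adjusted p = 0.068), with median normalization (adjusted p = 0.072), with every spot on its own (adjusted p = 0.087), with a dye effect (adjusted p = 0.090) and with slide as a block (adjusted p = 0.088), and the mean reached 1.20 with no offset.

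HOP1 gave smaller log2 ratios of 0.21, 0.12 and 0.20 in the YJR13 pair and 0.48, 0.43 and 0.71 in the YJR6 pair. All 6 were above 0 and the YJR6 values were the higher 3. The mean was 0.36 (SE 0.11), a fold change of 1.28 (adjusted p = 0.047), and the call was lost without any 1 of the 6 arrays, with adjusted p from 0.059 to 0.11. It was also lost without background correction (0.14, adjusted p = 0.078), with median normalization (0.20, adjusted p = 0.56), without any flagged spot (adjusted p = 0.15), with every spot on its own (adjusted p = 0.11), with a dye effect (adjusted p = 0.082) and with slide as a block (adjusted p = 0.075), and the mean reached 1.60 with no offset in the background correction. HOP1 was above the negative controls on 3 of 3 arrays in YJR13 and on 0 of 3 in YJR12, so its level in YJR12 has only an upper bound, and the ratio of that pair was not called (adjusted p = 0.48).

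DMC1, which encodes a meiosis-specific strand exchange protein, had log2 ratios of 0.44, 0.02 and 0.05 in the YJR13 pair and 1.5, 0.43 and 0.75 in the YJR6 pair. It was above 0 on 6 of 6 arrays and highest on array 4, with a mean of 0.53 (SE 0.20, adjusted p = 0.092) that was not called. The synapsis genes spread around smaller means. ZIP1, which encodes the central element of the synaptonemal complex, had a mean of 0.27 (SE 0.12, adjusted p = 0.12), and ZIP2, SPO16 and SPO22, which help Zip1 assemble, had means of 0.07, -0.09 and 0.00 (SE 0.08 each). SPO13, which keeps sister chromatids together in the first division, had a mean of 0.22 (SE 0.12, adjusted p = 0.23).

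SPS100, which encodes a glycoprotein of the outer spore wall, carried the largest change among the 35. Its log2 ratios were 2.05, 3.90 and 1.44 in the YJR13 pair and 3.33, 3.83 and 2.19 in the YJR6 pair. Arrays 2 and 5, which have the mutant in Cy3, gave the highest values in their pairs. In mutants the signal over background was 3.28, 12.2 and 4.65 in YJR13 and 6.71, 15.7 and 2.02 in YJR6, while in wild types it was 1.16, 1.31 and 1.29 in YJR12 and 1.54, 1.46 and 1.25 in MGD353-46D. The gene was thus low in every wild type culture, above the negative controls in all 12 channels, and well above background in every mutant culture. The mean log2 ratio of 2.79 (SE 0.36) was a fold change of 6.92 (adjusted p = 0.0042, limma), with 2.46 (SE 0.52) for the YJR13 pair and 3.12 (SE 0.52) for the YJR6 pair. The call held under all 18 alternative settings, at log2 ratios from 1.93 without background correction to 3.68 with no offset, and without each array in turn the adjusted p lay between 0.0034 and 0.017. Allowing for a dye effect, the mean was 3.06 (adjusted p = 0.0054).

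**Figure D3:**
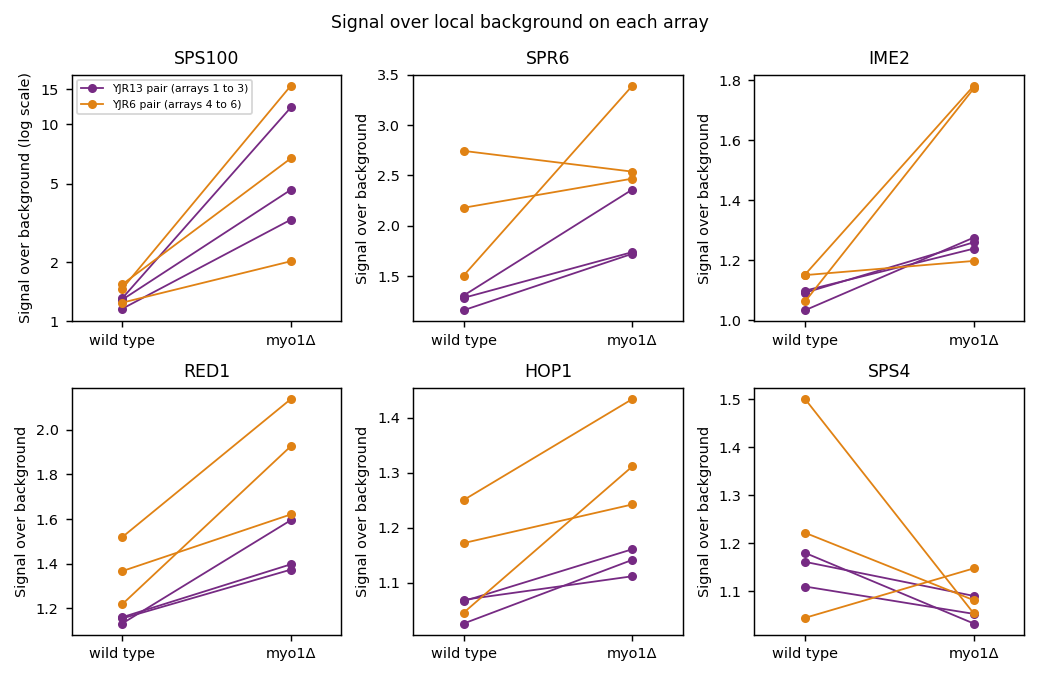
Signal over local background in the wild type and the myo1Δ channel of each array, joined by a line per array, for SPS100 (log scale), SPR6, IME2, RED1, HOP1 and SPS4 (linear scales that do not start at 0), with the YJR13 pair in purple and the YJR6 pair in orange. For SPS100 and IME2 every mutant channel lies above every wild type channel, and for the other 4 genes the mutant and wild type ranges overlap.

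SPR6, whose transcript accumulates in sporulation and whose function is not known, gave log2 ratios of 0.40, 0.89 and 0.22 in the YJR13 pair and 0.30, 1.04 and 1.39 in the YJR6 pair. It was higher in the mutant on all 6 arrays. Its signal was 1.72 to 3.39 times background in mutants and 1.16 to 2.74 in wild types, so the ranges overlapped, the highest wild type value being that of array 4. The mean of 0.71 (SE 0.18) was a fold change of 1.63 (adjusted p = 0.028). Without array 1, 2, 5 or 6 the call was lost, with adjusted p from 0.05006 to 0.081.

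The late genes DIT1 and DIT2 encode the enzymes that make the dityrosine of the outer spore wall, and SPS4 is another late sporulation gene. These 3 were named after their values were seen. DIT2 had log2 ratios of 0.18, 1.06 and 0.02 in the YJR13 pair and 0.58, 0.72 and 0.35 in the YJR6 pair, with a mean of 0.49 (SE 0.15, adjusted p = 0.051), which passed the threshold without array 3 at 0.58 (adjusted p = 0.033). It was highest on array 2, and on 0 of 3 arrays was it above the negative controls in YJR12, where its level therefore has only an upper bound. The ratio of that pair was not called (adjusted p = 0.34). DIT1 had ratios of 0.11 to 0.12 in the YJR13 pair and 0.24 to 0.57 in the YJR6 pair, with a mean of 0.27 (SE 0.10, adjusted p = 0.092).

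SPS4 gave log2 ratios of -0.47, -0.59 and -0.15 in the YJR13 pair and -0.33, -0.02 and -0.85 in the YJR6 pair. It was the single member below 0 on all 6 arrays, with a mean of -0.40 (SE 0.13, adjusted p = 0.056) that missed the threshold. Without array 5 it was called lower, at -0.48 (adjusted p = 0.049), and with no offset in the background correction it was called lower at -1.87. Its signal was 1.03 to 1.15 times background in mutants and 1.04 to 1.5 in wild types. Of the late genes, then, SPS100 rose and the other 3 were not called in the main fit. Under 5 of 17 alternative settings DIT2 was called higher, and under 5 of 17 SPS4 was called lower.

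Of the other 11 spore genes 0 were called by limma at an adjusted p of 0.05, and 1, SPO20, passed an unadjusted p of 0.05. SPO20, a SNARE protein of prospore membrane fusion, had a mean of 0.38 (SE 0.15, adjusted p = 0.11) and SPO73, which helps shape that membrane, one of 0.34 (SE 0.15, adjusted p = 0.13), and both were highest on array 4. SPS18 and SPO21, the latter a component of the meiotic spindle pole on which the prospore membrane forms, had means of 0.26 (SE 0.12) and 0.21 (SE 0.10). SPR1, the sporulation-specific glucanase, ranged from -0.50 on array 6 to 0.63 on array 4. SPO1, SPO19, SPO74, SPO75, SPO77 and SPS2 had means between -0.05 and 0.03. SPO1 was above the negative controls in all 12 channels and SPS2 in 9. SPO19 was above them in 6, SPO74 and SPO77 in 5 and SPO75 in 4, so their ratios rest in part on channels at background.

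A few more genes were above the negative controls on none of the arrays of a wild type strain, so that their level there has only an upper bound. In MGD353-46D these were SMK1 and SPO77, whose ratios in the YJR6 pair were not called (adjusted p = 0.38 and adjusted p = 0.78, limma). In YJR12 they were ZIP2 and SPO19.

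Fitted by strain pair, 0 of the 35 genes were called in the YJR13 pair (limma, adjusted p of at most 0.05), where 1.25% of all genes were, and 1 member, SPS100, was higher at an unadjusted p of 0.05 (adjusted p = 0.069), as 10.9% of all genes were. In the YJR6 pair 7 members, or 20% of them, were higher and 0 lower, where 18.1% of all genes were called and 9.94% were higher. These 7 were IME2 (2.05-fold), RED1 (2.05-fold), DMC1 (1.86-fold), REC102 (1.58-fold), SPO11 (1.51-fold), HOP1 (1.46-fold) and SPS100 (8.69-fold), with adjusted p from 0.020 to 0.044. Of them, 5 were among the 13 recombination genes, whose median log2 ratio in this pair was 0.42. Among the 22 other recombination and chromosome genes described below, 0 were called in this pair, with a median of 0.04. All 7 calls were lost without array 4 or without array 6, and in each of those fits 0 of all genes were called in the YJR6 pair. They were also lost with slide as a block. When the arrays were scaled to a common spread, the pairs gave 1 member (YJR13) and 2 members (YJR6), and the calls over all genes turned round, from 78 (YJR13 pair) and 1135 (YJR6 pair) to 833 and 391.

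The difference between the pairs was then tested directly. The 5 members with the largest differences, YJR13 pair minus YJR6 pair, were RED1 at -0.79 (SE 0.27), IME2 at -0.74 (SE 0.25), DMC1 at -0.72 (SE 0.32), SPS100 at -0.66 (SE 0.73) and REC102 at -0.63 (SE 0.18). None of the 35 differences was called (limma, adjusted p from 0.55 upward), and 0.0639% of all genes were. At an unadjusted p of 0.05, 5 members were lower in the YJR13 pair and 0 higher, beside 4.01% of all genes lower. The 5 were IME2, RED1, REC102 and SPO11, at an adjusted p of 0.55, and NDT80. All 3 YJR6 values lay above all 3 YJR13 values for 10 members (IME2, NDT80, SPO11, REC102, HOP1, RED1, SPO13, SPO21, SPS18 and DIT1), and 6.48% of all genes did so. For the YJR13 pair the median of the 35 genes was 0.05, and for the YJR6 pair it was 0.26. The arrays of the YJR6 pair also had SDs over all genes of 0.88 to 1.16, beside 0.67 to 0.99 for the YJR13 pair, and the part of this wider spread in the difference was not tested.

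**Figure D4:**
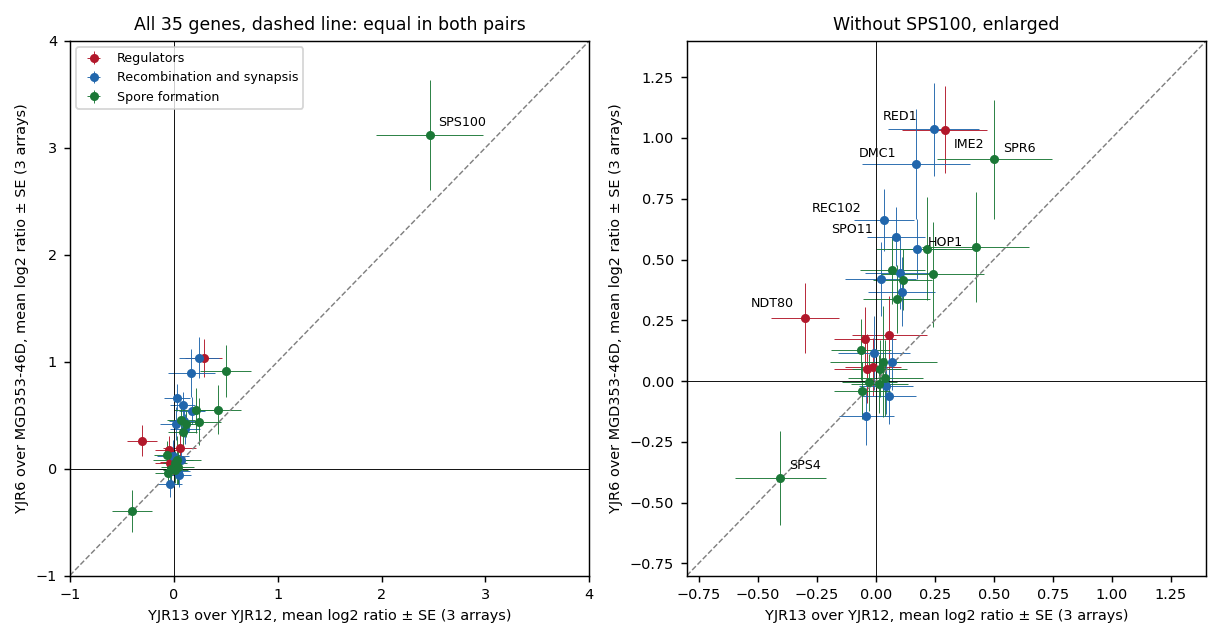
Mean log2 ratio ± SE of the 35 genes for YJR13 over YJR12 (x axis) and YJR6 over MGD353-46D (y axis), 3 arrays each, colored by role, with all genes on the left and an enlarged view without SPS100 on the right. Most recombination genes with a ratio above 0 lie above the dashed line of equal values, and NDT80 lies left of 0 on the x axis and above 0 on the y axis.

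The wider pathway was followed in 77 further genes in 3 lists. Over the 6 arrays 14 of the 77 were higher and 2 lower (limma, adjusted p of at most 0.05), with a median log2 ratio of 0.15, beside 14.2% and 12.9% of all genes. Among 18 other regulators of entry into meiosis 7 were higher and 1 lower. Those with the smallest p were SIN3, a subunit of the repressor complex that holds early meiotic genes silent, at 1.19 (SE 0.15, adjusted p = 0.0042), the nutrient-responsive kinase gene RIM15 at 0.54 (SE 0.11), the RNA-binding protein gene RIM4 at 0.93 (SE 0.22) and AMA1, a meiotic activator of the anaphase-promoting complex, at 0.88 (SE 0.22). The 1 that fell was SOK2, a transcription factor gene, at -0.53 (SE 0.13), named for being alone. RME1, the haploid repressor of IME1, had a mean of 0.07 (SE 0.18, adjusted p = 0.83).

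Of 23 other recombination and chromosome genes 22 were on the array. By limma 0 were higher (2 at an unadjusted p of 0.05) and 1 was lower, SKI8, at -0.58 (SE 0.11, adjusted p = 0.011). SKI8 encodes a protein with a role in cytoplasmic RNA decay besides its role with Spo11. Among 37 other genes of the spore membrane and wall 7 were higher and 0 lower. They were led by SPS19, a peroxisomal enzyme of unsaturated fatty acid breakdown, at 1.71 (SE 0.24, adjusted p = 0.0050), the glucoamylase gene SGA1 at 1.32 (SE 0.28), SHC1, an activator of chitin synthase in sporulation, at 1.49 (SE 0.32), and DON1, a protein of the prospore membrane's leading edge, at 1.26 (SE 0.32).

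Haploid-specific genes, which a/α diploids repress, served as a marker of cell type, since a diploid state is what sporulation requires. Of 10 such genes, RME1 included, 0 were higher and 2 lower (limma, adjusted p of at most 0.05), beside 12.9% of all genes lower. They were HO, the mating type switching endonuclease gene, at -2.05 (SE 0.23, lower on 6 of 6 arrays), and FAR1, an inhibitor of cell cycle start in mating, at -0.93 (SE 0.24). The other 8 had means from -0.52 to 0.35, with a median of -0.04 for the 10. As markers of spores 4 late members were taken, SPS100, DIT1, DIT2 and SPS4, of which SPS100 was called, and the calls among the other spore genes are those given above. Since all RNA came from whole cultures, a change in a few cells and a change in every cell cannot be told apart.

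**Figure D5:**
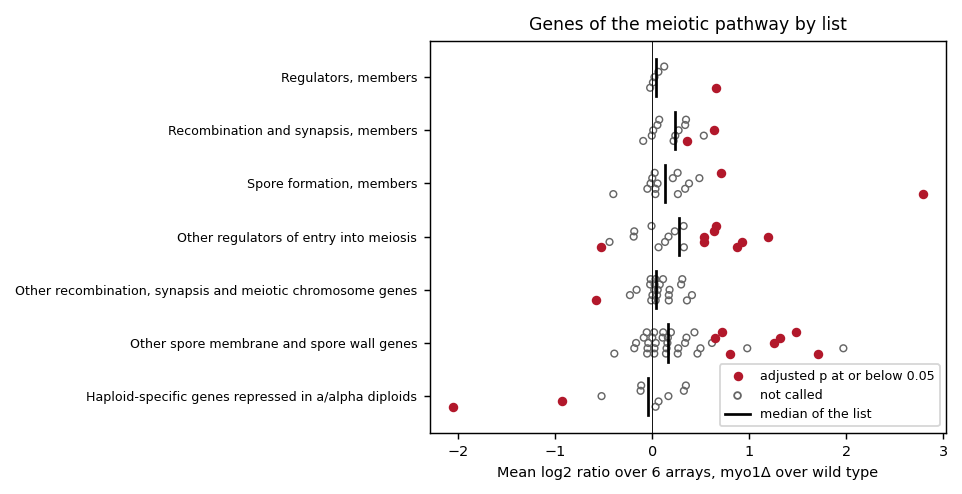
Mean log2 ratio over the 6 arrays, myo1Δ over wild type (x axis), for the 3 groups of members and for 4 lists of other genes, with 1 circle per gene, filled red where the adjusted p was at most 0.05, and a bar at each list's median. The red points of the first 3 rows are the 5 called members, and HO and FAR1 are the 2 red points of the haploid-specific genes.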

How the data were processed

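Spots were quantified by the authors with ImaGene (header version 6.0.0), and the deposited files give mean spot intensity and local background median intensity for both dyes. Per the paper's methods, the authors used limma for background correction, lowess and averaging, and the deposited log2 ratios (Cy5 over Cy3) were recomputed to within 4.74e-08. Their centring is near 0, with array medians from -0.0103 to 0.0191. Here R 4.3.3 and limma 3.58.1 were used. Poor spots (32 to 192 per array) were left out, normexp with an offset of 50 and loess within arrays were applied, ratios were turned to myo1Δ over wild type, and the 1 or 2 spots of each gene were averaged. lmFit and eBayes tested the mean of the 6 arrays against 0 and each strain pair (3 arrays each), with Benjamini-Hochberg adjustment over 6255 genes. SE is moderated. The number of arrays limits the precision. Full values are given for members called over the 6 arrays, the 5 largest means, the 5 largest differences between pairs and IME1, IME2, IME4 and NDT80, and up to 4 genes by p for each other list. The members and lists were chosen with earlier results of these data known. Symbols and the order of neighboring genes follow RefSeq, and no coordinates are given because the array files name no build. Promoter motifs were not analysed here. The fits over the 6 arrays were tested on simulated gene-level log2 ratios. Background correction, normalization, flags, spot averaging and detection were not simulated. Alternatives changed background, normalization, flags, intensity filter, spots, dye, blocks and arrays used.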

Additional observations from a re-analysis of the deposited data

Results flagged for a closer look

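Of the 35 genes tested for an array apart from the other 5, 2 had one, and chance gives about 1 in 20 such groups. IME4 had a log2 ratio of 0.17 on array 6, and its other 5 arrays lay between -0.07 and 0.02. SPO13 had a log2 ratio of 0.76 on array 4, and its other 5 arrays lay between -0.04 and 0.25. Neither gene was called over the 6 arrays.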

How the results depend on the processing

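Over the 6 arrays the number of members called was 5, and it was 2 without background correction, 12 (11 higher, 1 lower) with plain subtraction, 15 (14 higher, 1 lower) with a normexp offset of 0, 3 (2 higher, 1 lower) with median normalization, 2 among genes at or above the median intensity, 2 with every spot tested on its own, 3 with a dye effect, 2 with slide as a block, 1 where the adjusted p had to reach 0.01 and 3 at an unadjusted 0.01. The 1 lower member was SPS4 in each case. Calls over all genes numbered 1693 in the main fit. They were 1377 without background correction, 1937 with plain subtraction, 1940 with an offset of 0 and 1427 with median normalization. At or above the median intensity 1315 were called, with every spot on its own 1176, with a dye effect 1618 and with slide as a block 1105. An adjusted p of 0.01 gave 465 and an unadjusted p of 0.01 gave 1520 (limma). Leaving out each array in turn gave 1 to 5 members, beside 815 to 1864 of all genes, and SPS100 was called each time. Scaling between arrays gave 6 members, the strain pair as a block 7, and the deposited ratios 5, without RED1 and with DIT2. Of all genes these 3 settings called 1696, 1750 and 1700. In the YJR13 pair the number of members called was 0. It was 2 with plain subtraction, 4 with an offset of 0, 2 with median normalization and 1 with scaling. Without any flagged spot, at or above the median intensity and at an unadjusted p of 0.01 it was 1 each time. Calls over all genes in that pair rose as well, from 78 to 597 with plain subtraction and 712 with an offset of 0. Median normalization gave 493 and scaling 833. Without any flagged spot there were 283, at or above the median intensity 337 and at an unadjusted p of 0.01 (limma) 566. In the YJR6 pair the number of members called was 7, and it was 4 without background correction, 12 with plain subtraction, 11 with an offset of 0, 2 with scaling, 4 without any flagged spot, 2 at or above the median intensity, 3 with every spot on its own, 0 with slide as a block and 0 at an adjusted p of 0.01, and leaving out arrays gave 0 to 5. Of all genes 1135 were called there, and 964 without background correction, 1212 with plain subtraction, 1092 with an offset of 0 and 391 with scaling. Without any flagged spot 1308 were called, at or above the median intensity 891, and 657 with every spot on its own. With slide as a block 386 were called, 0 at an adjusted p of 0.01, and 0 to 1045 with arrays left out. The difference between pairs was called for 0 members under every alternative that was run. The median of the members was 0.12, and it was 0.39 with plain subtraction, 0.60 with an offset of 0, 0.27 without any flagged spot and 1.75 for the 2 members at or above the median intensity. Members above the negative controls in all 12 channels numbered 13, and 0 were over 2.6 background SDs above local background in all of them, where 32.3% of genes were. Near 0, signs turned. IME1 was 0.01, and -0.00317 without background correction, -0.0498 with plain subtraction, -0.11 with an offset of 0, -0.23 with median normalization, -0.00784 with scaling and from -0.0555 to 0.0375 with arrays left out. IME4 was 0.02, and -0.28 with median normalization and from -0.00566 to 0.0415 with arrays left out. NDT80 was -0.02, and 0.0218 with median normalization, 0.0572 with every spot on its own, and from -0.10 to 0.0583 with arrays left out. The causes were not tested. Signals this close to background are shrunk toward a log2 ratio of 0 by the offset of 50, so the folds of dim members depend on it. Mutant and wild type were paired within each array by its log2 ratio. The strain pairs share no replicate numbers, so no pairing between them was possible. The slides inferred from the image names enter as the block above.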

Other observations

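The genes next to the called members on the chromosome, in the RefSeq table of gene order, were also measured. Next to SPS100, YHR138C had a mean log2 ratio of 1.58 (SE 0.22, adjusted p = 0.0048, limma), higher on 6 of 6 arrays, while YHR139C-A on the other side had 0.03 (SE 0.08) and was above the negative controls in 7 of 12 channels. Next to IME2, YJL107C had 1.03 (SE 0.25, adjusted p = 0.024) and SET4 had -0.10 (SE 0.18). Next to SPR6, SLX8, a subunit of a ubiquitin ligase that targets sumoylated proteins, had 0.89 (SE 0.22, adjusted p = 0.026) and BOI2 had 0.01 (SE 0.16). The neighbors of HOP1 and RED1 were not called over the 6 arrays. In that fit 14.2% of all genes were called higher and 12.9% lower. Whether neighbors changed together was not tested. In the YJR6 pair TMA7, next to RED1, was called lower at -1.24 (SE 0.21, adjusted p = 0.020, limma). RPS28B on the other side of RED1, and SPO22 and PCI8 next to HOP1, were not called in that pair, where 18.1% of all genes were.

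YGP1, a secreted glycoprotein related in sequence to SPS100 that is known from nutrient limitation, was looked at after the values of SPS100 were seen. Its log2 ratios were 2.67, 2.89 and 3.14 in the YJR13 pair and 2.78 and 5.28 on arrays 4 and 6, with its spot on array 5 left out as poor. It was higher in the mutant on 5 of 5 arrays, with a mean of 3.35 (SE 0.40, adjusted p = 0.0047). Whether the RNA of one of these genes also binds the probe of the other was not tested.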
